A study of Mus musculus with 12 samples.

Results

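The 10 genes described here belong to, or respond to, the signalling of leukaemia inhibitory factor (LIF) and related cytokines through shared receptor chains. They are the ligand gene Lif, the receptor genes Lifr, Il6st and Cntfr, the kinase genes Jak1 and Jak2, the transcription factor gene Stat3, and the response genes Socs3, Pim1 and Pim3. They were taken by gene symbol from the 54446 gene identifiers listed for each library. The list of 10 was chosen with earlier results of these data known. All 10 were found in each of the 12 libraries, and all 10 passed the filter on low values, a mean of at least 1 TPM (a share of the library's transcripts, corrected for their length and scaled to a fixed sum).

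LIF binds a receptor made of LIFR and gp130, the product of Il6st. The kinases JAK1 and JAK2 are attached to the inner side of these chains, phosphorylate them and then STAT3, which moves to the nucleus and activates its target genes. In mouse embryonic stem (ES) cells this pathway supports self-renewal. CNTFR is the binding chain for ciliary neurotrophic factor and a pair of related cytokines and joins the same LIFR and gp130 chains. SOCS3 is induced by STAT3 and blocks gp130 and JAK kinases in turn, and PIM1 and PIM3 are serine/threonine kinases whose genes are STAT3 targets.

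RNA had been sequenced from ES cells of 2 lines, in 6 groups of 2 libraries. KH and DNMT3ABKO cells were collected untreated (0 h) and after 72 or 144 h of mTOR kinase inhibition (mTORi) by INK128, which puts ES cells into a paused state. DNMT3ABKO cells are a knockout of DNMT3A and DNMT3B, the enzymes that set new DNA methylation. The labels call the background E14 in both lines, whereas the methods describe a wild-type KH2 line, and the label names are kept here. The design asks how the genes respond to mTORi over time and whether the response depends on the de novo methyltransferases.

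Several features limit the groups as models. Each genotype is represented by 1 line. The labels do not say whether the libraries of a group came from separate cultures, while the paper's reporting summary describes independent repeats of its experiments. The p-values measure the spread between these libraries, which may be technical. No untreated culture was sampled at 72 or 144 h, so mTORi cannot be told apart from time in culture. The methods place KH2 and Dnmt3a/b knockout cells on a layer of inactivated fibroblast feeders and give a medium with added LIF for feeder-free lines, without restating it for cells on feeders. Cells were sorted before RNA extraction. From values normalized to spike-in RNA, the paper reports a global fall in transcription under mTORi in wild-type and Dnmt3a/b knockout cells. TPM is a share of the library and cannot show such a fall. Higher and lower below thus refer to shares, not to RNA per cell.

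The labels held up in the targeted genes. Group means of Dnmt3a were 9.45 to 19.4 TPM in DNMT3ABKO cells and 56.2 to 110 TPM in KH cells, and those of Dnmt3b were 12.9 to 26.9 and 145 to 257 TPM. These whole-gene values cannot tell which exons were left. The 8 ES cell markers (Pou5f1, Sox2, Nanog, Zfp42, Esrrb, Utf1, Tdgf1 and Dppa5a) were above 1 TPM in every library. Replicates were loosest in DNMT3ABKO cells at 0 h, with a residual SD of 0.272 on the log2 scale against 0.133 to 0.176 in the other groups. The gene of highest TPM in this group, Gm26917, was at 125306 TPM in replicate 1 and 75931 TPM in replicate 2. Such a difference shifts the shares left to other genes, and its part in the spread was not tested. Each result that involves this group was also computed without either of its libraries.

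Summed markers of other cell types made up a smaller share of the treated libraries. The sum of 14 fibroblast markers was 1838 to 1990 TPM (KH) and 2127 to 2142 TPM (DNMT3ABKO) at 0 h, and 81.5 to 101 TPM in all 4 libraries at 144 h. No fibroblast marker was at 0 in any library, and the 12 that passed the filter were lower at both times than at 0 h in both lines by limma (adjusted p under 0.05). The sum of 12 macrophage markers went from 262 to 335 TPM at 0 h to 38.3 to 56.3 TPM at 144 h, and 11 of the 11 tested were lower at 144 h in KH and 10 in DNMT3ABKO cells, with Aif1 at 0 TPM in all 4 libraries at 144 h and C1qb at 0 TPM in KH libraries. At 72 h 7 of the 11 macrophage markers were lower in KH cells and 8 in DNMT3ABKO cells. Over all tested genes, 19.5% and 21.6% were lower in these comparisons. Laptm5 was called higher at 72 h in both lines. The ES cell marker sum stood at 4163 to 4426 TPM at 0 h and at 6134 to 6600 TPM under mTORi. Its mean was 1.47 times the 0 h value at 72 h and 1.52 times at 144 h in KH cells, and 1.45 and 1.55 times in DNMT3ABKO cells. In such bulk samples, fewer cells of a type and less RNA per cell cannot be told apart.

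Before treatment, the genes spanned a range from abundant response genes to scarce ligand and kinase transcripts. In KH cells at 0 h, Pim1 (80.4 TPM), Pim3 (77.2 TPM), Socs3 (74.7 TPM) and Stat3 (74.4 TPM) formed the top of the order, and each overlapped its neighbour between libraries. Il6st (35.1 TPM), Jak1 (33.2 TPM) and Lifr (32.5 TPM) followed, again with overlapping libraries. Lif (6.58 TPM), Cntfr (5.15 TPM) and Jak2 (4.97 TPM) were lowest, with Cntfr and Jak2 overlapping. In DNMT3ABKO cells at 0 h the order ran from Pim1 (95.9 TPM) to Cntfr (2.81 TPM), which there lay below Jak2 (5.42 TPM) without overlap. Since TPM is corrected for length, these levels can be compared between genes.

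**Figure D1:**
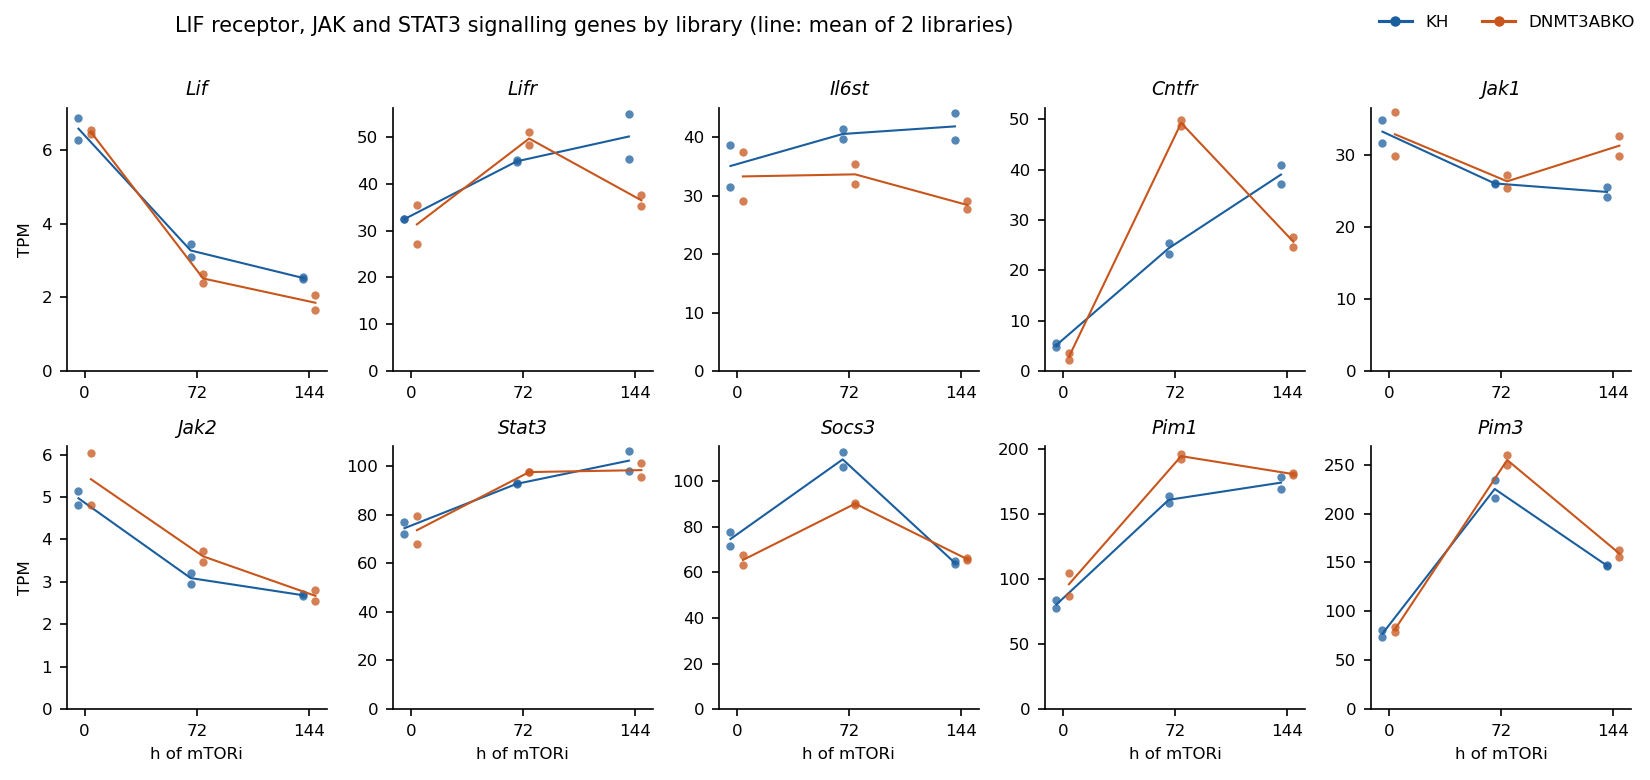
TPM of the 10 genes in each of the 12 libraries (points) against hours of mTORi, with lines through the means of the 2 libraries of a group, KH in blue and DNMT3ABKO in orange. Lif and Jak2 are lower in every treated library than in every 0 h library, Pim1, Pim3, Stat3 and Cntfr are higher, and Cntfr in DNMT3ABKO cells peaks near 49 TPM at 72 h.

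Under mTORi, Lif and Jak2 were lower and Stat3, Pim1, Pim3 and Cntfr higher at both times in both lines. A gene was called when its limma test on log2(TPM + 1), adjusted over all 15727 genes tested, gave a p under 0.05. In KH cells, 6 of the 10 genes were higher and 3 were lower at 72 h than at 0 h, where 28.3% of all tested genes were called higher and 19.5% lower. At 144 h in KH cells 5 were higher and 4 lower, against backgrounds of 27.4% and 23.9%. In DNMT3ABKO cells 6 were higher and 3 lower at 72 h, against 34.3% and 21.6%, and 4 were higher and 2 lower at 144 h, against 31.4% and 26.2%, so that the number called in this last comparison was near that over all genes. The median log2 fold change of the 10 genes was 0.38 and 0.35 in KH cells at 72 and 144 h and 0.43 and 0.12 in DNMT3ABKO cells, beside 0.08, 0.05, 0.12 and 0.05 over all tested genes.

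The background itself moved with the scaling. When libraries were rescaled by their median ratio, the higher genes made up 47.6% instead of 59.1% of all calls in KH cells at 72 h, and 49.9% instead of 61.3% in DNMT3ABKO cells. In the latter contrast the median of all genes moved by -0.11 on the log2 scale. The genes called among the 10 were unchanged in number and direction at 72 h under this scaling in both lines, with the smaller DNMT3ABKO changes then at 0.28 for Stat3, 0.33 for Socs3 and -0.43 for Jak1. Leaving out each library in turn, both DNMT3ABKO libraries at 0 h included, gave 8 to 9 calls at 72 h and 6 to 7 at 144 h in that line, and 6 to 9 and 8 to 10 in KH cells.

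Lif, the ligand gene (ENSMUSG00000034394.14, mm10 chromosome 11, 4257557 to 4272514, plus strand), fell under mTORi in both lines. In KH cells it measured 6.27 and 6.88 TPM at 0 h, 3.45 and 3.09 TPM at 72 h, and 2.49 and 2.56 TPM at 144 h. In DNMT3ABKO cells it measured 6.53 and 6.44 TPM, then 2.39 and 2.63 TPM, then 2.06 and 1.64 TPM. No treated library reached the level of any 0 h library. The KH mean was 49.7% of the 0 h mean at 72 h (log2 fold change -0.83 ± 0.11 SE, adjusted p = 0.000188) and 38.4% at 144 h (-1.10 ± 0.11, adjusted p = 2.04e-05). The DNMT3ABKO mean was 38.7% at 72 h (-1.09 ± 0.11, adjusted p = 2.04e-05) and 28.5% at 144 h (-1.40 ± 0.11, adjusted p = 2.43e-06).

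The further decline between 72 and 144 h did not pass the test in either line (log2 -0.28, adjusted p = 0.0936 in KH cells and -0.30, adjusted p = 0.0601 in DNMT3ABKO cells), although the libraries of the 2 times did not overlap. DNMT3ABKO libraries lay below KH libraries at 72 and 144 h, with differences of -0.28 and -0.31 that did not pass the test (adjusted p = 0.0948 and 0.0565). Feeder fibroblasts are a known source of LIF. The mean fibroblast marker sum was 27.0% of its 0 h value at 72 h and 4.40% at 144 h in KH cells, with 19.0% and 4.57% for DNMT3ABKO cells. The part of fibroblast RNA in the fall of Lif was not tested.

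Lifr, which encodes the LIF-binding chain (ENSMUSG00000054263.12, chromosome 15, 7090614 to 7197489, plus strand), rose in both lines at 72 h and stayed up at 144 h in KH cells. KH libraries measured 32.4 and 32.5 TPM at 0 h, 44.6 and 45.0 TPM at 72 h, and 54.9 and 45.4 TPM at 144 h. DNMT3ABKO libraries measured 27.1 and 35.6 TPM, then 51.1 and 48.3 TPM, then 35.3 and 37.7 TPM. All treated KH libraries were above the KH libraries at 0 h, whereas the DNMT3ABKO libraries at 144 h overlapped those at 0 h. The KH change was 0.45 ± 0.12 on the log2 scale at 72 h (adjusted p = 0.012) and 0.61 ± 0.12 at 144 h (adjusted p = 0.00221), and the former lost the call without KH replicate 1 at 0 h or either KH replicate at 72 h. The DNMT3ABKO change was 0.66 ± 0.12 at 72 h (adjusted p = 0.00119) and 0.22 ± 0.12 at 144 h, which did not pass the test (adjusted p = 0.141). The 144 h value rests on the 0 h libraries of that line, being 0.04 without replicate 1 (adjusted p = 0.789) and 0.41 without replicate 2, where it was called (adjusted p = 0.00536).

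Between 72 and 144 h, Lifr fell in DNMT3ABKO cells by 0.44 on the log2 scale (adjusted p = 0.0238). At 144 h it was lower in DNMT3ABKO than in KH cells, at 72.8% of the KH mean (log2 -0.44 ± 0.12, adjusted p = 0.0234). This difference lost the call without KH replicate 1, the library at 54.9 TPM (-0.31, adjusted p = 0.179), without either DNMT3ABKO replicate at 144 h (-0.40 and -0.49) and without the filter, and the fall from 72 h lost it without any 1 of its 4 libraries. The difference between lines in the 144 h response was -0.38 ± 0.17 and did not pass the test (adjusted p = 0.22).

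Il6st, the gene of gp130, the chain shared by all cytokines of this family (ENSMUSG00000021756.12, chromosome 13, 112464070 to 112510086, plus strand), had no called change from 0 h. KH libraries measured 31.5 and 38.7 TPM at 0 h, 39.8 and 41.4 TPM at 72 h, and 44.2 and 39.5 TPM at 144 h. DNMT3ABKO libraries measured 29.2 and 37.4 TPM, then 35.4 and 32.0 TPM, then 27.7 and 29.1 TPM. No change from 0 h passed the test in either line, with log2 values between -0.21 and 0.25 and adjusted p of 0.123 to 0.886. The DNMT3ABKO value at 144 h was called lower with median-ratio scaling (-0.26, adjusted p = 0.028) and without DNMT3ABKO replicate 1 at 0 h (-0.39, adjusted p = 0.0198), and was -0.04 without replicate 2. The KH value at 144 h was called higher without either of these DNMT3ABKO libraries, which enter its error only (0.25, lowest adjusted p = 0.0465), and ranged from 0.11 to 0.40 without 1 KH library. At 144 h every DNMT3ABKO library was below every KH library, at 67.9% of the KH mean (log2 -0.54 ± 0.13, adjusted p = 0.0114). The call was lost without KH replicate 1 or DNMT3ABKO replicate 1 at 144 h, with values of -0.46 and -0.51 and an adjusted p of up to 0.0884. The difference between lines in the 144 h response was -0.46 ± 0.18 (adjusted p = 0.155).

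Cntfr, the gene of the lipid-anchored chain that binds ciliary neurotrophic factor (ENSMUSG00000028444.17, chromosome 4, 41657498 to 41697089, minus strand), showed the widest range of the 10 genes, 3.75 on the log2 scale between its lowest and highest group means. In KH cells it measured 4.69 and 5.60 TPM at 0 h, 25.5 and 23.3 TPM at 72 h, and 37.1 and 40.9 TPM at 144 h. In DNMT3ABKO cells it measured 2.10 and 3.53 TPM at 0 h, 48.7 and 49.9 TPM at 72 h, and 26.6 and 24.7 TPM at 144 h. All treated libraries lay above all untreated ones. The order of the treated times differed, since KH libraries were highest at 144 h and DNMT3ABKO libraries at 72 h.

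In KH cells the mean TPM of Cntfr was 4.74 times the 0 h mean at 72 h (log2 2.05 ± 0.15, adjusted p = 7.45e-06) and 7.58 times at 144 h (log2 2.70 ± 0.15, adjusted p = 5.61e-07). In DNMT3ABKO cells it was 17.5 times the 0 h mean at 72 h (log2 3.75 ± 0.15, adjusted p = 1.09e-07) and 9.12 times at 144 h (log2 2.83 ± 0.15, adjusted p = 2.07e-07). The log2 values include the added 1 TPM and understate the change from a low start. From 72 to 144 h Cntfr rose in KH cells (0.66 ± 0.15, adjusted p = 0.0133) and fell in DNMT3ABKO cells (-0.92 ± 0.15, adjusted p = 0.00169). The KH rise lost the call without KH replicate 1 or 2 at 72 h or replicate 2 at 144 h, at 0.59 to 0.72, and the DNMT3ABKO fall kept it under all 18 alternatives.

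The lines differed in Cntfr at each time, in alternating directions. At 0 h DNMT3ABKO cells were at 54.7% of KH (log2 -0.71 ± 0.15, adjusted p = 0.0195), at 72 h at 202% (0.99 ± 0.15, adjusted p = 0.00169) and at 144 h at 65.8% (-0.58 ± 0.15, adjusted p = 0.0196). Libraries of the lines did not overlap at any time. The difference at 0 h lost the call with only the compared groups in the model, without a filter on low values, and without KH replicate 2 at 0 h (-0.60). The one at 144 h lost it without any 1 of the 4 libraries (-0.52 to -0.65) and without the filter, whereas the one at 72 h held under all 18 alternatives. The difference between lines in the 72 h response was 1.70 ± 0.22 (adjusted p = 0.00203), and it ranged from 1.42 to 1.97 over the alternatives, with an adjusted p of at most 0.0153. At 144 h the responses differed by 0.13 ± 0.22 (adjusted p = 0.781).

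The bases before the start sites of Cntfr and Lif are shown, 5′ to 3′ on the strand of the gene, with CpG dinucleotides, on which DNA methyltransferases act, in capitals. They were chosen as the gene that differed between the lines at each time and the ligand gene, which did not pass that test. Sequences are from RefSeq on GRCm38.p6, taken before the most upstream start listed there and ended where GENCODE has no exon of the gene. No methylation value was analysed here.
Cntfr, chr4:41696038-41696287, minus strand: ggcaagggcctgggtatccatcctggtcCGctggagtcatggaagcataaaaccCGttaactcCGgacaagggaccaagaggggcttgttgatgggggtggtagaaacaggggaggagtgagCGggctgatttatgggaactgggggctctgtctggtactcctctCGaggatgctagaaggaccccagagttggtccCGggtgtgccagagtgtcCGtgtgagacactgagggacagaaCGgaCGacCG
Lif, chr11:4257318-4257556, plus strand: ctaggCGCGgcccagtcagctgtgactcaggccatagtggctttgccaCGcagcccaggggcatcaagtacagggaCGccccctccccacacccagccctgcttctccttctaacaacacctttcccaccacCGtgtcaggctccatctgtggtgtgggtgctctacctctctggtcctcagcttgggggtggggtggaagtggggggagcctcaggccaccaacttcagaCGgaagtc
The stretch of 250 bases before this Cntfr start holds 10 CpG, and the stretch of 239 bases before Lif holds 6. RefSeq lists 6 start sites for Cntfr, with 3 to 47 CpG in the window of 300 bases around each, and GENCODE places the printed bases inside the gene but in no exon. The deposited values are per gene and do not show which start was used.

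All 10 genes matched the RefSeq promoter table, with 17 of its 32851 promoters. Their first-listed promoters had a median of 36.5 CpG in 300 bases, against 7 over all promoters. Lif, with 7, was at the overall median, and Stat3 had 15, while Il6st (33), Jak1 (29), Jak2 (44), Socs3 (31) and Pim3 (40) had more. The genes with several listed promoters had 3 to 47 (Cntfr), 4 and 53 (Lifr), and 5 and 42 (Pim1).

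Jak1, one of the receptor-bound tyrosine kinases (ENSMUSG00000028530.14, chromosome 4, 101152367 to 101265282, minus strand), fell modestly under mTORi. KH libraries measured 31.6 and 34.8 TPM at 0 h, 25.9 and 26.1 TPM at 72 h, and 25.5 and 24.2 TPM at 144 h. DNMT3ABKO libraries measured 29.8 and 35.9 TPM, then 27.2 and 25.4 TPM, then 29.9 and 32.7 TPM. Both lines were below their 0 h libraries at 72 h, and KH cells also at 144 h, when DNMT3ABKO libraries lay within the 0 h range. The KH changes were -0.34 ± 0.10 at 72 h (adjusted p = 0.0161) and -0.40 ± 0.10 at 144 h (adjusted p = 0.00597). The DNMT3ABKO changes were -0.30 ± 0.10 (adjusted p = 0.0223) and -0.06 ± 0.10 (adjusted p = 0.595). The KH call at 72 h was lost without replicate 2 at 0 h (-0.27) or either replicate at 72 h, and the DNMT3ABKO call without replicate 2 at 0 h (-0.17) or at 72 h (-0.26) and with only the compared groups in the model. At 144 h Jak1 was higher in DNMT3ABKO than in KH cells (0.32 ± 0.10, adjusted p = 0.035), a call lost under 11 of 18 alternatives, the replicate block included.

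Jak2, the partner kinase (ENSMUSG00000024789.12, chromosome 19, 29251828 to 29313080, plus strand), was the scarcer of the pair throughout and fell in both lines. KH libraries measured 4.81 and 5.13 TPM at 0 h, 2.96 and 3.22 TPM at 72 h, and 2.66 and 2.71 TPM at 144 h. DNMT3ABKO libraries measured 4.81 and 6.03 TPM, then 3.73 and 3.46 TPM, then 2.80 and 2.54 TPM. Treated libraries were below untreated ones without overlap. KH means were 62.1% and 54.0% of 0 h (log2 -0.55 ± 0.11, adjusted p = 0.00293, and -0.70 ± 0.11, adjusted p = 0.000559). DNMT3ABKO means were 66.4% and 49.3% (-0.47 ± 0.11, adjusted p = 0.00498, and -0.80 ± 0.11, adjusted p = 0.00017), and the former missed the threshold with only the compared groups in the model (adjusted p = 0.0562). No difference between the lines passed the test, with log2 values of 0.10, 0.17 and -0.01 at 0, 72 and 144 h (adjusted p = 0.619, 0.332 and 0.974).

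Stat3, the transcription factor gene at the end of the cascade (ENSMUSG00000004040.16, chromosome 11, 100885098 to 100939540, minus strand), rose in both lines to a like level. KH libraries measured 71.9 and 76.9 TPM at 0 h, 92.5 and 92.8 TPM at 72 h, and 106 and 98.1 TPM at 144 h. DNMT3ABKO libraries measured 67.8 and 79.4 TPM, then 97.4 and 97.6 TPM, then 95.3 and 101 TPM. Every treated library exceeded every untreated one. The KH change was 0.31 ± 0.08 at 72 h (adjusted p = 0.0107) and 0.45 ± 0.08 at 144 h (adjusted p = 0.0012). The DNMT3ABKO change was 0.41 ± 0.08 (adjusted p = 0.00212) and 0.42 ± 0.08 (adjusted p = 0.0016). The KH call at 72 h was lost without KH replicate 1 at 0 h or either KH replicate at 72 h, at 0.27 to 0.32. The lines did not differ past the threshold at any time, with log2 values of -0.02, 0.07 and -0.06 ± 0.08. TPM measures the transcript as a share of the library, not per cell, and phosphorylation of STAT3 was not measured.

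Some of the rises were of the size seen in the summed ES cell markers. Over the 4 comparisons with 0 h, mean TPM was 1.25 to 1.37 times the 0 h mean for Stat3 and 1.16 to 1.59 times for Lifr, beside 1.45 to 1.55 times for the ES cell marker sum. Pim1 (1.88 to 2.16 times), Pim3 (1.90 to 3.12 times) and Cntfr (4.74 to 17.5 times) lay above the marker sum in all 4. The markers did not move as one, since in DNMT3ABKO cells Tdgf1 reached 3.25 and 3.19 times its 0 h mean at 72 and 144 h, while Nanog was called lower at 72 h (0.702 times, adjusted p = 0.00422) and Utf1 at 144 h (0.809 times, adjusted p = 0.00674). Dppa5a and Pou5f1 made up most of the sum. The part of a changing ES cell share in these rises was not tested.

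**Figure D2:**
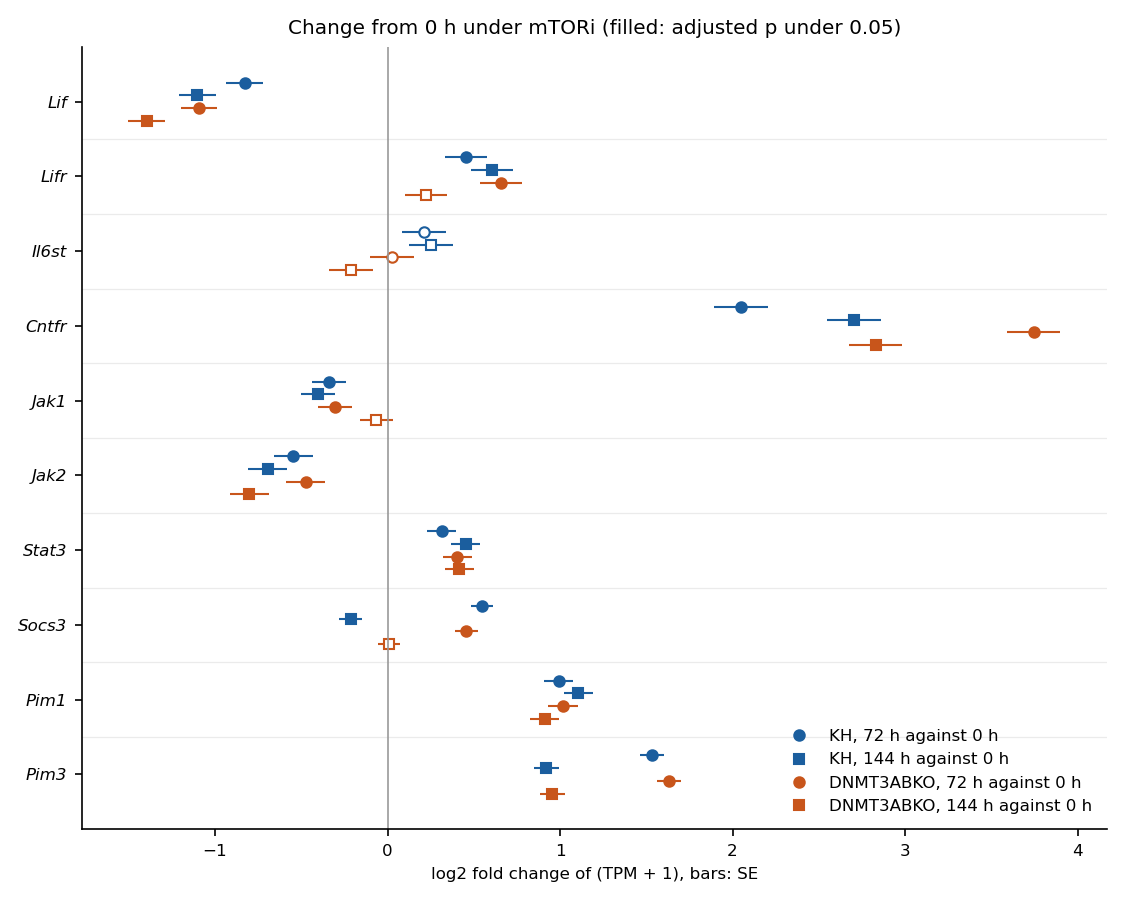
Log2 fold change of (TPM + 1) from 0 h for each gene at 72 h (circles) and 144 h (squares) in KH (blue) and DNMT3ABKO (orange) cells, with SE bars and filled symbols for an adjusted p under 0.05. Lif and Jak2 lie left of 0 and Stat3, Pim1, Pim3 and Cntfr right of 0 with filled symbols in all 4 comparisons, and the symbols of Il6st are all open.

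Socs3, the feedback inhibitor (ENSMUSG00000053113.3, chromosome 11, 117966079 to 117970047, minus strand), rose and came back. KH libraries measured 71.7 and 77.7 TPM at 0 h, 113 and 106 TPM at 72 h, and 64.8 and 63.5 TPM at 144 h. DNMT3ABKO libraries measured 63.5 and 67.5 TPM, then 90.7 and 89.7 TPM, then 66.2 and 65.4 TPM. The 72 h libraries stood above all others of their line, and at 144 h KH libraries were below those at 0 h while DNMT3ABKO libraries were within their range. At 72 h the change was 0.55 ± 0.07 in KH cells (adjusted p = 0.000119) and 0.46 ± 0.07 in DNMT3ABKO cells (adjusted p = 0.000243). From 72 to 144 h it was -0.76 ± 0.07 (adjusted p = 3.18e-05) and -0.45 ± 0.07 (adjusted p = 0.000676), and all 4 of these calls held under all 18 alternatives. Against 0 h, the 144 h value was -0.21 ± 0.07 in KH cells (adjusted p = 0.0195), a call lost without KH replicate 2 at 0 h (-0.16) or either KH replicate at 144 h, and 0.01 ± 0.07 in DNMT3ABKO cells (adjusted p = 0.933).

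At 72 h, Socs3 was lower in DNMT3ABKO than in KH cells, at 82.3% of the KH mean (log2 -0.28 ± 0.07, adjusted p = 0.0149). The call was lost without KH replicate 1 or either DNMT3ABKO replicate at 72 h. The lines' 72 h responses differed by -0.09 ± 0.09 (adjusted p = 0.67). Among the 17 promoters of the 10 genes, that of Socs3 alone holds the letters TTCNNNGAA, the form in which STAT proteins are known to bind DNA. The motif reads the same on both strands and was found in 8.30% of all promoters in the table. It stands in capitals below, 154 bases before the RefSeq start site. GENCODE places the printed bases inside the gene but in no exon.
Socs3, chr11:117969452-117969616, minus strand: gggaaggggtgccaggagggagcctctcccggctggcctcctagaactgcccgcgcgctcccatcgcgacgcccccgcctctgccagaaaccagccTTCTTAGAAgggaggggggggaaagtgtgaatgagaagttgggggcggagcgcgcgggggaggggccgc
The match is a description of the sequence and was not tested for binding.

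Pim1 (ENSMUSG00000024014.7, chromosome 17, 29490812 to 29496111, plus strand) and Pim3 (ENSMUSG00000035828.11, chromosome 15, 88862186 to 88865726, plus strand), kinases known to promote survival and growth, were the most abundant of the 10 genes under mTORi. Pim1 measured 77.3 and 83.4 TPM at 0 h in KH cells, 163 and 158 TPM at 72 h, and 169 and 179 TPM at 144 h. In DNMT3ABKO cells it measured 87.1 and 105 TPM, then 196 and 192 TPM, then 180 and 181 TPM. Pim1 thus rose by 72 h and held that level, with no call between 72 and 144 h in either line. The changes from 0 h in KH cells were 0.99 ± 0.08 (adjusted p = 1.57e-05) and 1.10 ± 0.08 (adjusted p = 4.09e-06). In DNMT3ABKO cells they were 1.02 ± 0.08 (adjusted p = 7.13e-06) and 0.91 ± 0.08 (adjusted p = 9.49e-06). At 72 h Pim1 was higher in DNMT3ABKO than in KH cells by 0.27 ± 0.08 (adjusted p = 0.0484), a call lost under 14 of 18 alternatives.

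Pim3 had a peak instead. It measured 73.3 and 81.2 TPM at 0 h in KH cells, 234 and 216 TPM at 72 h, and 147 and 146 TPM at 144 h. In DNMT3ABKO cells it measured 84.3 and 78.8 TPM, then 250 and 260 TPM, then 162 and 156 TPM. In both lines the 3 times did not overlap, with 144 h between 0 h and 72 h. The KH change was 1.53 ± 0.07 at 72 h (adjusted p = 5.08e-07) and 0.92 ± 0.07 at 144 h (adjusted p = 4.68e-06), and the DNMT3ABKO change was 1.63 ± 0.07 (adjusted p = 1.5e-07) and 0.96 ± 0.07 (adjusted p = 2.17e-06). From 72 to 144 h Pim3 fell by 0.61 in KH cells (adjusted p = 0.000273) and by 0.68 in DNMT3ABKO cells (adjusted p = 8.76e-05). The 4 changes of each PIM gene from 0 h and these 2 falls were called under all 18 alternatives. No difference of Pim3 between lines passed the test.

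At 3 of these loci an annotated gene on the opposite strand shares bases with the gene described. An antisense gene, Gm26885, shares 1173 bases with Pim1 and measured 2.01 to 7.18 TPM, Stat5a shares 72 bases with Stat3, and Raver2 shares 4 bases with Jak1. These overlaps are from a GENCODE release whose coordinates for Pim1 differ from the deposited ones given above. Whether the quantification used the strand is not given in the sources used here, so in these stretches the reads of the partners may not have been told apart.

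The 2 treated times were also compared directly. In KH cells 1 of the 10 genes was higher (Cntfr) and 2 were lower (Pim3 and Socs3) at 144 h than at 72 h, where 7.24% of tested genes were called higher and 15.6% lower. In DNMT3ABKO cells none was higher and 4 were lower (Cntfr, Lifr, Pim3 and Socs3), against 8.81% and 18.5%. With median-ratio scaling the share of higher genes among all calls moved from 31.7% to 46.1% in KH cells and from 32.3% to 47.8% in DNMT3ABKO cells. The 10 genes then gave 3 higher and 2 lower in KH cells, with Pim1 (0.17) and Stat3 (0.20) added, and 1 higher (Jak1, 0.31) and 5 lower in DNMT3ABKO cells, with Jak2 (-0.27) added. The fall of Pim3 and Socs3 from 72 to 144 h was called in both lines under all 18 alternatives.

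Between the lines, the number of the 10 genes called was near or somewhat above the share over all genes. At 0 h 1 gene was called (Cntfr, lower in DNMT3ABKO cells), where 9.06% of tested genes differed in either direction. At 72 h 3 were called (Cntfr and Pim1 higher, Socs3 lower), against 19.3%, and at 144 h 4 (Jak1 higher, Cntfr, Il6st and Lifr lower), against 26.5%. The 3 lower genes encode receptor chains, but calls over all genes also leaned to lower in this contrast (2439 lower and 1727 higher). Of 3 further receptor genes tested, 1 was called, Il6ra, and it was higher in DNMT3ABKO cells. Depending on which library was left out, between 0 and 5 of the 10 genes were called at 144 h, so their 4 calls rest on single libraries. Differences between lines in the response were called for 1 gene at 72 h (Cntfr), where 5.23% of tested genes had one, and for none at 144 h, where 8.59% did. At 144 h, Il6st, Jak1 and Socs3 had an unadjusted limma p under 0.05. With median-ratio scaling Il6st (-0.48) and Jak1 (0.33) were called, and Socs3 was called under no alternative. The comparisons within and between lines share libraries and are not independent of each other.

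**Figure D3:**
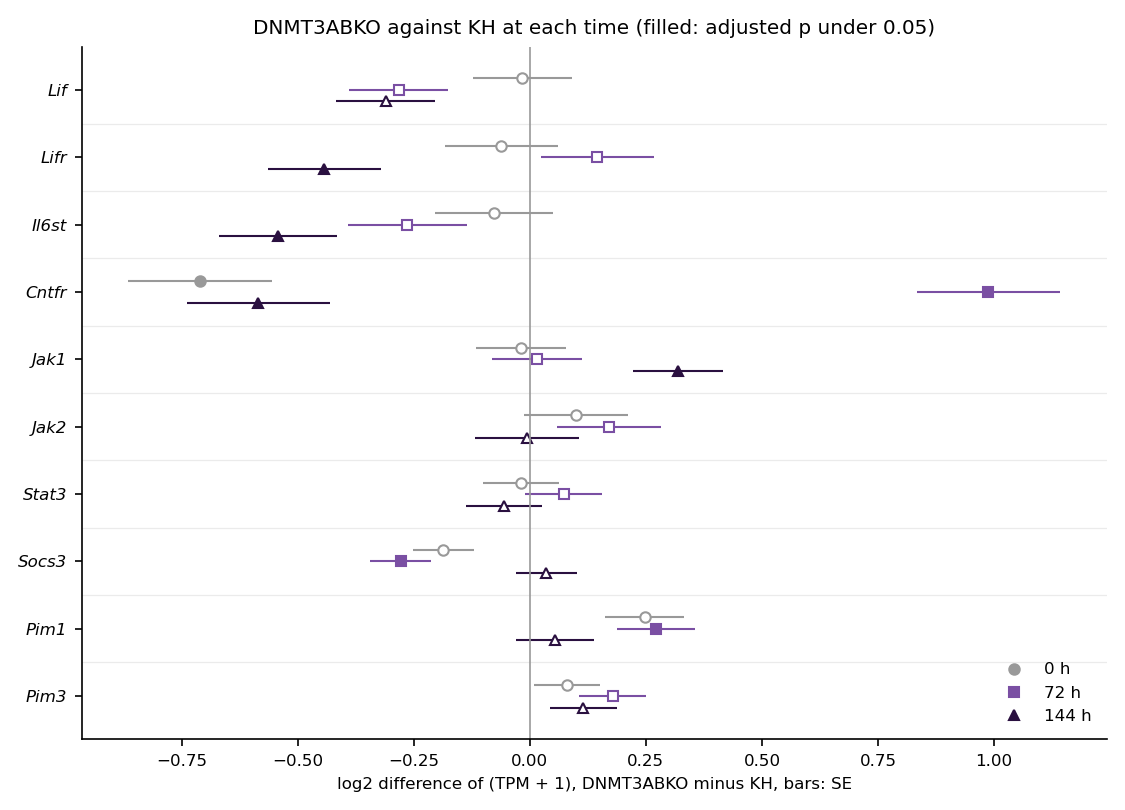
Log2 difference of (TPM + 1), DNMT3ABKO minus KH, for each gene at 0 h (grey circles), 72 h (purple squares) and 144 h (dark triangles), with SE bars and filled symbols for an adjusted p under 0.05. Cntfr is at -0.71, 0.99 and -0.58, and the other 9 genes stay between -0.54 and 0.32.

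The wider pathway was taken from a list of 54 further genes, of which 49 passed the filter. In KH cells 16 were higher and 9 lower at 72 h, close to the 28.3% and 19.5% of all tested genes, and 13 were higher and 17 lower at 144 h, against 27.4% and 23.9%. In DNMT3ABKO cells 19 were higher and 16 lower at 72 h, against 34.3% and 21.6%, and 20 higher and 23 lower at 144 h, against 31.4% and 26.2%. None of these calls changed direction with median-ratio scaling. Where a small count is spelled out below, its genes were named after their values were seen. With only the compared groups in the model, the DNMT3ABKO count at 72 h was 21 instead of 35.

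Several other ligand genes were lower at 144 h, as Lif was. Of 7 ligand genes tested, 5 were lower in KH cells (23.9% of all tested genes) and 6 in DNMT3ABKO cells (26.2%) at 144 h. At 72 h 2 were lower in KH cells, near the share of 19.5% over all genes, and 4 in DNMT3ABKO cells (21.6%). None was called higher in these comparisons. Il6 and Il11 were lower in all 4. Il6, the gene of interleukin-6, went from 3.14 to 0.254 TPM in KH cells at 144 h (log2 -1.72, adjusted p = 4.61e-06). Osm, which encodes oncostatin M, went from 3.12 to 0.480 TPM in DNMT3ABKO cells at 144 h (-1.48, adjusted p = 5.15e-05), with a macrophage marker sum at 19.9% of its 0 h value. Between lines at 0 h, Osm was called higher in DNMT3ABKO cells (3.12 against 1.35 TPM, log2 0.84). The mean macrophage marker sum there was 278 TPM, against 320 TPM in KH cells. The part of other cell types in these falls was not tested.

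Among the receptor genes, Osmr, the oncostatin M chain that also pairs with gp130, went against Lifr and Cntfr. It fell from 10.9 to 1.70 TPM in KH cells (-2.14, adjusted p = 1.04e-05) and from 10.4 to 1.76 TPM in DNMT3ABKO cells (-2.01, adjusted p = 9.78e-06) at 144 h. Il6ra, the interleukin-6 chain, was at 0.319 and 0.463 TPM in KH cells and at 2.56 and 2.49 TPM in DNMT3ABKO cells at 144 h (1.34 ± 0.12, adjusted p = 1.93e-05). Il11ra1 fell in DNMT3ABKO cells from 5.99 to 3.80 TPM (-0.54, adjusted p = 0.00206). The other 3 receptor genes of the list did not pass the filter.

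**Figure D4:**
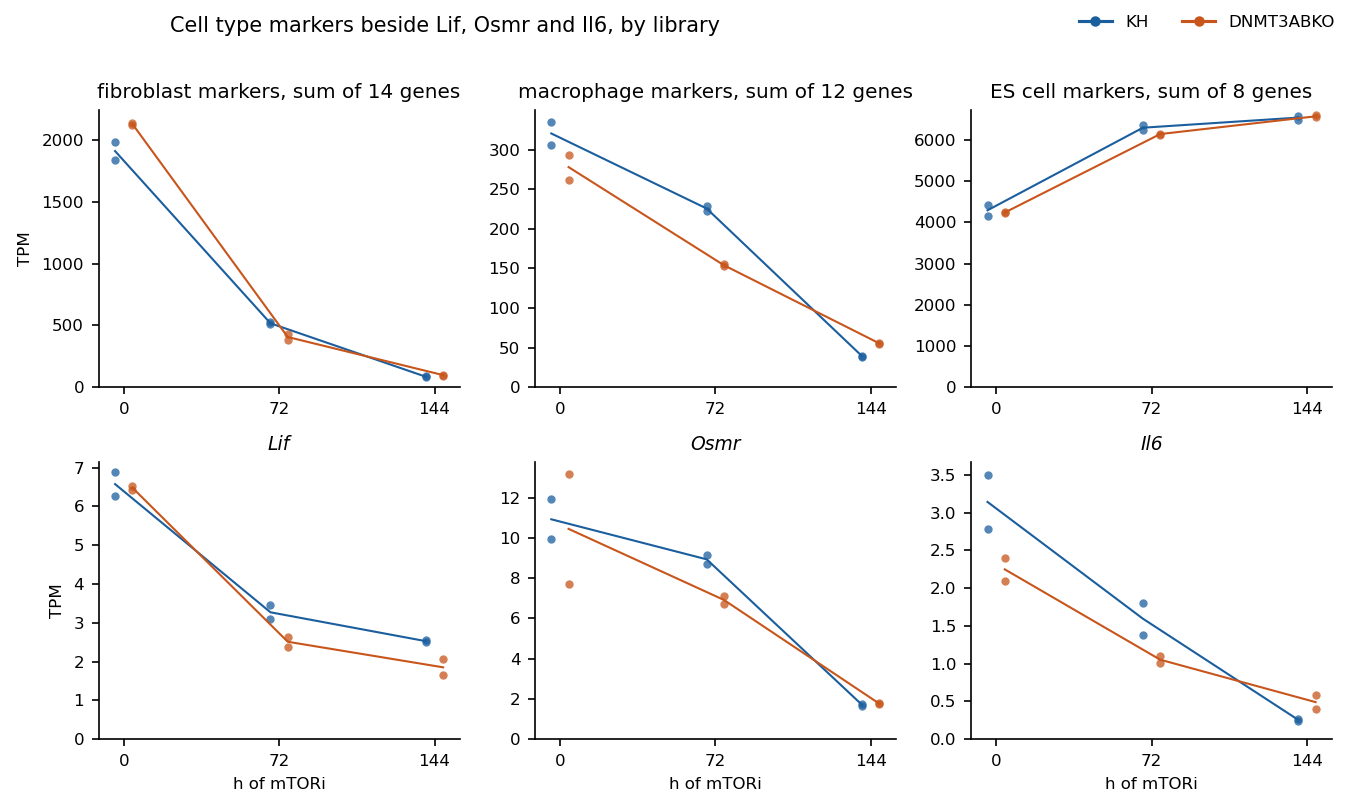
Summed TPM of fibroblast, macrophage and ES cell markers (upper row) and TPM of Lif, Osmr and Il6 (lower row) against hours of mTORi, 1 point per library and lines through group means. In KH cells the fibroblast sum is at 27.0% of its 0 h mean at 72 h and at 4.40% at 144 h, and Lif is at 49.7% and 38.4%. Mean Osmr is 10.9, 8.93 and 1.70 TPM for KH and 10.4, 6.91 and 1.76 TPM for DNMT3ABKO at the 3 times.

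Of 8 further kinase and STAT genes, Jak3 and Tyk2, which encode the other JAK family kinases, were higher in KH cells at 72 h (0.43, adjusted p = 0.00346, and 0.53, adjusted p = 0.000841, on the log2 scale) and none was lower, against 28.3% and 19.5% of all genes. In DNMT3ABKO cells at 72 h Tyk2 was higher (0.40, adjusted p = 0.00344) and Jak3 (-0.77, adjusted p = 7.03e-05), Stat2 and Stat4 were lower, against 34.3% and 21.6%. At 144 h none was called higher. In KH cells 3 were lower at 144 h (23.9% of all genes), led by Stat6 (13.1 to 8.20 TPM, log2 -0.62, adjusted p = 0.00256) and Stat2 (7.33 to 4.88 TPM, -0.51, adjusted p = 0.00154). In DNMT3ABKO cells 6 were lower (26.2% of all genes), led by Stat4 (7.32 to 3.67 TPM, -0.81, adjusted p = 0.00346) and Jak3 (15.5 to 9.68 TPM, -0.63, adjusted p = 0.000221). Stat3 was thus the only STAT gene of those tested that was called higher at 144 h. Stat4 was also lower in DNMT3ABKO than in KH cells at 144 h (3.67 against 6.49 TPM, -0.67, adjusted p = 0.0209).

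Negative regulators moved in both directions. Of 15 tested, 6 were higher and 2 lower (Ptpn11 and Socs5) at 144 h in KH cells, and 8 were higher and 5 lower in DNMT3ABKO cells, where Socs6, Cish and Ptpn6 joined those 2. The shares over all tested genes were 27.4% higher and 23.9% lower for KH, and 31.4% higher and 26.2% lower for DNMT3ABKO. Pias3, whose product inhibits STAT3 binding to DNA, rose from 17.1 to 32.8 TPM in KH cells (0.91, adjusted p = 0.000178), and Pias2 rose from 50.5 to 90.9 TPM in DNMT3ABKO cells (0.87, adjusted p = 0.000766). Ptpn11, the gene of the phosphatase SHP2, which binds gp130, fell from 40.4 to 22.7 TPM in KH cells (-0.81, adjusted p = 2.11e-05) and from 39.7 to 20.7 TPM in DNMT3ABKO cells (-0.91, adjusted p = 5.74e-06). Between lines at 144 h, 5 of the 15 were called, close to the 26.5% of all genes called in either direction. All 5 were lower in DNMT3ABKO cells, among them Socs2, Socs6 and Pias3 and, with the largest changes, Cish (2.66 against 6.05 TPM, -0.94, adjusted p = 0.000161), which encodes another SOCS family member, and Ptpn6, which encodes the phosphatase SHP1 (7.29 against 11.6 TPM, -0.61, adjusted p = 0.00169).

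Genes known as STAT3 targets were called higher more often than lower at 72 h, as were all tested genes. Of 16 tested, 11 were higher and 3 lower in each line at 72 h, where 28.3% of all genes were higher and 19.5% lower for KH, and 34.3% higher and 21.6% lower for DNMT3ABKO. The median change was 0.57 on the log2 scale in KH and 0.64 in DNMT3ABKO cells. At 144 h 7 were higher and 5 lower in KH cells (median 0.15), against 27.4% and 23.9%, and 11 higher and 4 lower in DNMT3ABKO cells (median 0.38), against 31.4% and 26.2%. The genes lower in both lines at 144 h were Fos, Pim2, Bcl2l1 and Ccnd1, with Pramel7 lower in KH cells alone among the calls. From 72 to 144 h 7 were lower and 1 higher in KH cells, against 15.6% and 7.24% of all genes, and 8 lower and 1 higher in DNMT3ABKO cells, against 18.5% and 8.81%. Gbx2, a homeobox gene known as a LIF target in ES cells, went from 10.1 to 54.0 and 35.6 TPM in KH cells and from 10.6 to 71.0 and 38.5 TPM in DNMT3ABKO cells (144 h against 0 h, log2 1.73, adjusted p = 9.41e-07, and 1.76, adjusted p = 4.27e-07). Fos, an immediate early gene singled out after its values were seen, peaked likewise, at 34.7, 73.7 and 20.5 TPM in KH cells and 28.3, 84.1 and 21.4 TPM in DNMT3ABKO cells.

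Some targets fell or differed between lines. Ccnd1, the gene of cyclin D1, fell in DNMT3ABKO cells from 152 to 53.1 TPM at 144 h (-1.50, adjusted p = 5.54e-08). Pim2, the third PIM kinase gene, was at 24.5 TPM in DNMT3ABKO and 53.9 TPM in KH cells at 144 h (-1.11, adjusted p = 4.17e-06), so that the 3 PIM genes did not move together. Pramel7 was nearly absent from treated KH cells, with 0.0698 and 0.111 TPM at 144 h, and measured 2.75 and 2.70 TPM in DNMT3ABKO cells (1.77 ± 0.13). Without these DNMT3ABKO libraries its mean is below 1 TPM. It thus passed the filter only through the group where it was high, and its calls that involve this group give no separate support. Its level at 0 h was 1.15 TPM in KH cells, against 1.88 TPM in the knockout. Its response at 144 h was called different between the lines, with the same limit, as were those of Myc, Zfp36 and Ccnd1. With Pramel7 included, these were 4 of the 16 targets tested, against 8.59% of all tested genes.

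**Figure D5:**
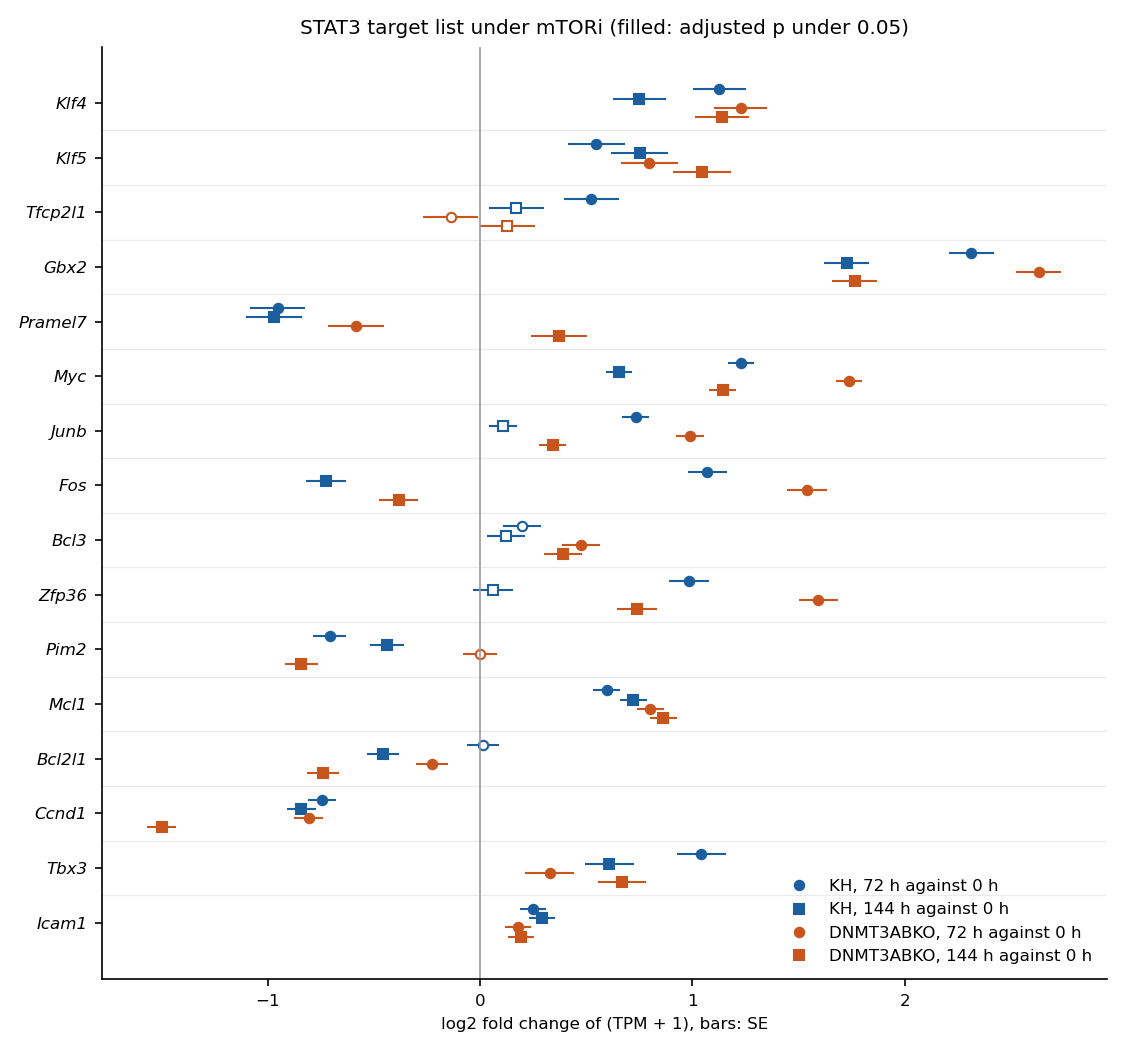
Log2 fold change of (TPM + 1) from 0 h for the 16 genes of the STAT3 target list at 72 h (circles) and 144 h (squares) in KH (blue) and DNMT3ABKO (orange) cells, with SE bars and filled symbols for an adjusted p under 0.05. Gbx2 lies furthest right in all 4 comparisons, and Fos has circles right of 0 and squares left of 0.

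For the 4 genes whose group means spanned more than 1 on the log2 scale, the tested genes of most like pattern were sought, as the root mean square difference over the 12 libraries after centring each gene. For Lif they were Adcy7 (0.0794), Creld1 (0.0895) and Aprt (0.0926), and for Pim1 they were Arhgef3 (0.0806), Syt9 (0.0806) and Faah (0.0935). For Pim3 they were Zkscan7 (0.101), Ltbp4 (0.116) and Gpr83 (0.127). Cntfr had no gene as close, with Halr1 (0.322), Platr7 (0.416) and Wt1 (0.434) nearest. Wt1, a transcription factor gene, shared the peak of Cntfr in DNMT3ABKO cells, at 1.97, 24.4 and 11.3 TPM, and the continued rise in KH cells, at 3.32, 8.23 and 13.6 TPM. The nearer genes did not share both. Halr1 was at 160 and 156 TPM in DNMT3ABKO cells at 72 and 144 h, and Platr7 was at 26.5 and 20.8 TPM in KH cells. All these values share the 12 libraries, and they describe likeness in these groups.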

How the data were processed

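Per the labels and the study's methods, the authors spiked ERCC RNA into total RNA, depleted ribosomal RNA, trimmed reads with cutadapt 2.4, aligned them to mm10 with STAR 2.7.3a and quantified GENCODE genes with StringTie 2.0 (versions from the submitters' processing notes). The deposited values are TPM per gene, 1 library per file. They hold no spike-in row and no read depth, so they are shares of each library, and no counting interval is given.

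Genes whose mean reached 1 TPM (15727) were tested as log2(TPM + 1) with limma 3.58.1 in R 4.3.3 (trended eBayes, 6 group coefficients, 11 contrasts, two-sided, Benjamini-Hochberg over all genes, called under 0.05), after a test on simulated data. The count test of the study's methods was not used on TPM. Within a line, libraries of the same replicate number deviated little together (correlations of deviations -0.104 to 0.0996). Between lines the highest correlation was 0.336, for the 0 h libraries, and no block across lines was fitted. No pair of replicates agreed at more than 70 genes. The alternatives used 0.1 TPM as pseudocount, no filter, median-ratio scaling, only the compared groups, a replicate block, and leaving out each library. The members, gene lists, markers and naming rule (all 10 genes; in the wider list the 2 called genes of largest change per role at 144 h) were chosen with earlier results of these data known, and some listed genes are counted but not reported here by name. Python 3.11.15, pandas 2.3.3, NumPy 2.4.6 and matplotlib 3.10.9 were used.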

Additional observations from a re-analysis of the deposited data

Results flagged for a closer look

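Cntfr responded differently in the 2 lines at 72 h of mTORi. The log2 change from 0 h was larger in DNMT3ABKO than in KH cells by 1.70 (SE 0.22, interaction term in limma, adjusted p = 0.00203), from 2.10 and 3.53 TPM to 48.7 and 49.9 TPM in DNMT3ABKO cells and from 4.69 and 5.60 TPM to 25.5 and 23.3 TPM in KH cells. The call held under all 18 alternatives.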

How the results depend on the processing

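Of 110 values (10 genes, 11 contrasts), 49 were called as reported and 67 under at least 1 setting, and none of the 67 changed sign under any of 18 alternatives. Of the 43 called under no setting, 22 changed sign in at least 1. TPM holds no depth, 2 libraries a group limit the precision, and without a library its partner is assumed to vary like the other groups.

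The number of the 10 genes called moved with median-ratio scaling to 5 for KH 144 h against 72 h, to 2 for the lines at 0 h and to 2 for the difference in the 144 h response, without a filter to 0 for the lines at 0 h and 1 at 144 h, and with only the compared groups to 0 for the lines at 0 h and 5 at 72 h. For the wider list it moved with only the compared groups to 21 for DNMT3ABKO 72 h against 0 h, 3 for the difference in the 72 h response and 1 between lines at 0 h, without a filter to 4 for that difference in response, and with median-ratio scaling to 12 for the difference in the 144 h response. The cause was not tested.

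Leaving out 1 library, the 10 genes gave 6 to 9 calls for KH 72 h and 8 to 10 for KH 144 h against 0 h, 2 to 3 for KH 144 h against 72 h, 8 to 9, 6 to 7 and 3 to 7 for the same contrasts in DNMT3ABKO cells, 0 to 2, 1 to 3 and 0 to 5 for the lines at 0, 72 and 144 h, and 1 to 1 and 0 to 3 for the differences in response. The wider list gave 20 to 30, 26 to 34 and 12 to 27 in KH cells, 27 to 34, 37 to 43 and 15 to 32 in DNMT3ABKO cells, 5 to 14, 8 to 15 and 10 to 18 for the lines, and 3 to 15 and 4 to 14 for the differences in response.

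The replicate block within each line, though the numbers share only a name, gave 9, 9 and 3 calls in KH cells, 9, 6 and 4 in DNMT3ABKO cells, 1, 2 and 3 for the lines and 1 and 0 for the differences. It lost Pim1 at 72 h and Jak1 at 144 h between lines. Replicate 1 of DNMT3ABKO at 0 and 72 h deviated only weakly in opposite directions (correlation -0.104). A crossed pairing, chosen after seeing the data, gave the same counts for the 10 genes.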

Other observations

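Ctf2, a cardiotrophin ligand gene that did not pass the filter on low values, was below 0.08 TPM in all 6 KH libraries and measured 0.175 and 0.340 TPM at 0 h, 0.729 and 1.01 TPM at 72 h and 2.97 and 2.66 TPM at 144 h in DNMT3ABKO cells. It was singled out after its values were seen and was given no test.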
